A study of Mus musculus with 3 samples.

Results

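The genes studied here are 32 genes of cholesterol and fatty acid synthesis, of their transcriptional control and of lipid transport. They were taken by symbol from a fixed list and not by their values, and all 32 were found among the 41388 genes of each count table. They comprise 18 enzymes of sterol synthesis, 5 genes of fatty acid synthesis, 5 genes of the SREBP control system and 4 genes of lipid transport. RNA came from dorsal root ganglion cells of C57BL/6 mouse embryos of both sexes at 12.5 days post coitum, sorted by flow cytometry for a Ret-EGFP reporter. Library B pooled 340 ganglia from 17 embryos, library C 300 from 15 embryos and library D 60 from 3 embryos, taken from spinal levels T11 to S1. All 3 pools are of 1 genotype, written Tg(Ret-EGFP)SJ/ in the sample labels, whereas the series text speaks of EGFP inserted at the Ret locus in heterozygotes. There is no second genotype, treatment or unsorted control, so levels are described within the sorted pools and 1 library is set against the others.

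Cholesterol is built from acetyl-CoA through mevalonate, farnesyl diphosphate, squalene and lanosterol. Fatty acids are built from the same acetyl-CoA, which ATP citrate lyase releases in the cytosol. The transcription factors SREBP-1 and SREBP-2 drive both pathways; SCAP escorts them from the endoplasmic reticulum when sterols are scarce, and the INSIG proteins hold them back when sterols are plentiful. Growing axons add membrane, and glial cells of peripheral nerve are known as strong lipid producers.

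Levels are given as TPM, counts scaled by gene length to the same sum in every library. Total counts ran from 11666241 in C to 20966139 in D, and the 32 genes took 0.363%, 0.330% and 0.546% of the counts of B, C and D. Of the 10 neuron markers all were at 1 TPM or more in every library, and the summed level of the 9 glia and Schwann precursor markers was 3054, 1515 and 4793 TPM for B, C and D. TPM runs higher in D for genes at large: over the 11896 genes at 1 TPM or more in every library, the median log2 TPM of D over the mean of B and C was 0.64. Ratios of D below therefore come from edgeR's TMM-scaled counts, where the median over all genes tested was -0.02. These bulk pools cannot separate fewer cells of a type from less RNA per cell.

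Of the 32 genes, 30 stood at 1 TPM or more in each library, against 28.7% of all genes in the files. The exceptions were Idi1, with 0.381 TPM in C, and Abca1, with 0.899 TPM in B and 0.853 in C. The share over all genes is a loose background, since it includes noncoding genes and only 23553 of the 41388 genes had any count. The median over the 32 genes of their mean TPM was 35.6, beside 13.6 over the genes detected in every library. By mean TPM 6 of the 32 were among the 1000 highest genes. Ordered by mean TPM, the genes formed 31 neighbouring pairs, and in 26 of these the order was not the same in all 3 libraries. Neighbouring ranks are thus not resolved for most of the set, and only wide gaps in level can be read.

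**Figure D1:**
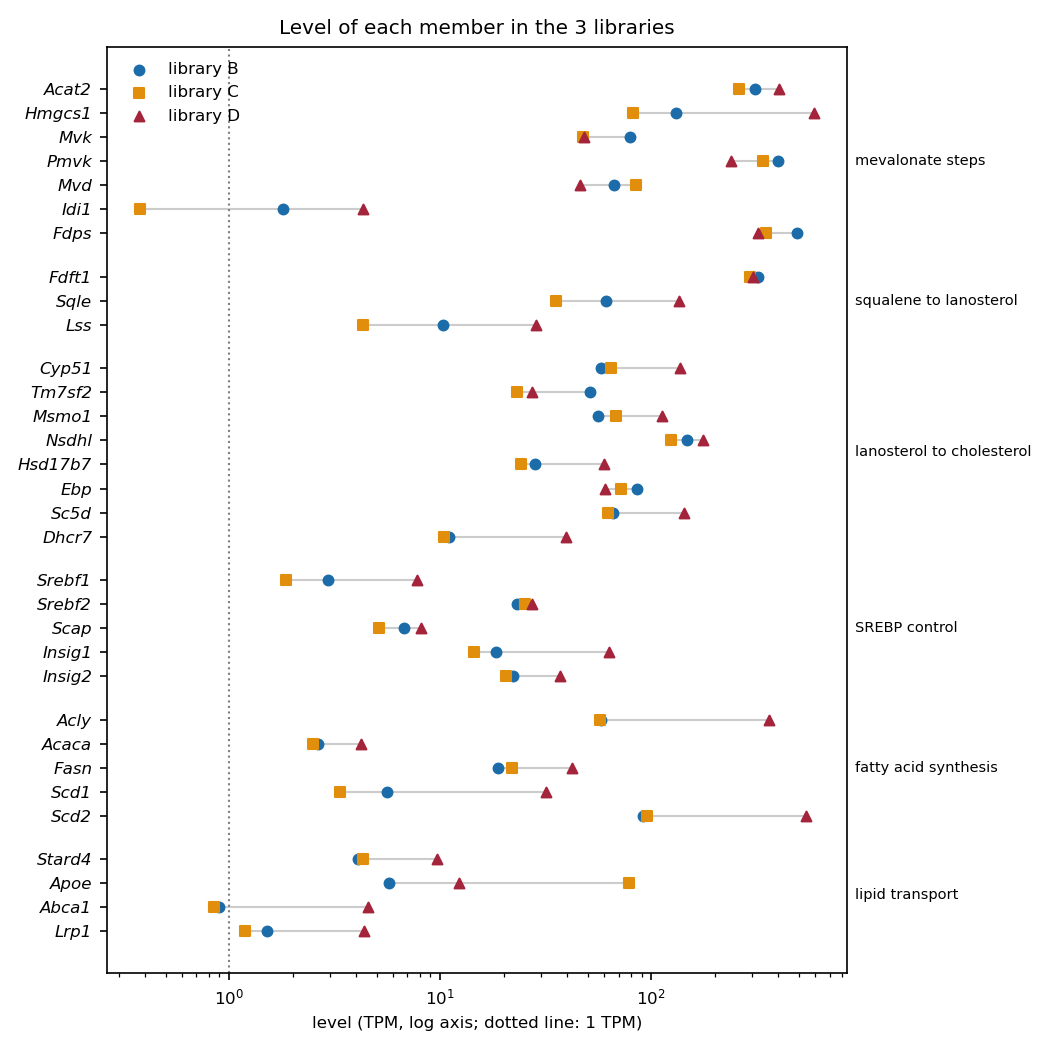
Level of each of the 32 genes in TPM (log axis) in libraries B, C and D, grouped by role; each point is 1 library, the grey line spans the 3 and the dotted line marks 1 TPM. Hmgcs1, Acly and Scd2 lie apart in D, at 588, 360 and 543 TPM, and Apoe lies apart in C, at 78.2 TPM.

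By mean TPM the 3 highest genes, Fdps, Pmvk and Acat2, belonged to the early, mevalonate steps. In D alone, Hmgcs1 and Scd2 stood above them, at 588 and 543 TPM. TPM divides by length, and Fdps and Pmvk are short, at 1241 and 1514 bases. By count, which leaves length out, Fdft1 was highest in B and C and Scd2 in D. Fdps encodes farnesyl diphosphate synthase, which makes the branch point of sterols and isoprenoids. It stood at 490, 349 and 321 TPM for B, C and D (387 ± 90.5, SD, n = 3). Pmvk, the phosphomevalonate kinase gene, stood at 399, 340 and 237 TPM in B, C and D (325 ± 81.8). Acat2, whose product joins acetyl-CoA units in the cytosol at the start of the pathway, was at 309, 260 and 401 TPM (324 ± 71.5). These genes overlap in range and are not separated by the spread between pools. Mvk, mevalonate kinase, and Mvd, which makes isopentenyl diphosphate, were lower. Mvk stood at 79.0, 47.3 and 48.1 TPM and Mvd at 66.3, 84.4 and 46.1 TPM in B, C and D.

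Hmgcs1 (chromosome 13, 119690462 to 119708086, GRCm38), which encodes cytosolic HMG-CoA synthase, varied most among the abundant steps of this arm. It stood at 132, 82.2 and 588 TPM for B, C and D (267 ± 279, n = 3). Library D alone is high, and its value exceeds both others. Idi1 (chromosome 13, 8885501 to 8892451), the isopentenyl diphosphate isomerase gene, was far below its pathway neighbours at 1.80, 0.381 and 4.33 TPM. It rests on 57, 8 and 117 counts, and the 8 counts in C have an exact 95% Poisson interval of 3.45 to 15.8, which covers counting error only. Idi2, its close relative, had 0 counts in each library. How reads were divided between these similar genes is not given in the sources used here, so the Idi1 level is uncertain.

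Fdft1 encodes squalene synthase, the first enzyme committed to sterols, and varied least of the 32 on the TPM scale. It stood at 321, 295 and 305 TPM for B, C and D (307 ± 13.0, n = 3). On the TMM scale, where D is not raised for genes at large, its log2 ratio in D was -0.72 ± 0.40. Its exons share 26.8% of their bases with Ctsb on the opposite strand, and the library kit does not mark strand, so part of that count may be Ctsb reads. Sqle, squalene epoxidase, stood at 61.0, 35.5 and 136 TPM, and Lss, lanosterol synthase, at 10.4, 4.31 and 28.4 TPM. Both were lowest in C and highest in D. The fall in level along these 3 steps, from Fdft1 to Sqle to Lss, was seen in each library.

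The 8 enzymes from lanosterol to cholesterol were all detected in every library. Nsdhl, a sterol dehydrogenase of C4 demethylation, was the highest at 147, 124 and 176 TPM in B, C and D (149 ± 26.0, n = 3). Sc5d, a sterol desaturase, stood at 66.1, 62.3 and 144 TPM. Cyp51, the lanosterol demethylase, stood at 57.6, 64.5 and 137 TPM. Msmo1, the methylsterol oxidase, was at 56.0, 68.0 and 113 TPM. In these last 3, B and C lie close together and D above in TPM, which runs higher in D for genes at large. On the TMM scale the log2 ratio in D was 0.46 ± 0.43 for Sc5d, 0.46 ± 0.42 for Cyp51 and 0.15 ± 0.42 for Msmo1. Ebp, the sterol isomerase, was instead lowest in D, with 85.3, 72.3 and 60.4 TPM. Hsd17b7, a ketosteroid reductase of the pathway, stood at 28.1, 24.2 and 59.9 TPM and Tm7sf2, a sterol reductase, at 51.1, 23.1 and 27.3 TPM, with 15.3% of its exon bases shared with Vps51. Dhcr7, which performs the last reduction, was the lowest of the 8 by mean, with 11.02, 10.4 and 39.4 TPM.

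Among the control genes, Srebf2 encodes the factor tied mainly to cholesterol genes. It was nearly level in TPM across pools, at 23.3, 25.3 and 27.3 in B, C and D. On the TMM scale its log2 ratio in D was -0.54 ± 0.47. Srebf1, encoding the factor tied mainly to fatty acid genes, stood at 2.93, 1.86 and 7.76 TPM. Srebf2 exceeded Srebf1 in 3 of 3 libraries, by a log2 TPM ratio of 2.81 ± 0.95 (SD, n = 3; two-sided exact sign-flip p = 0.25, adjusted p = 0.31 over 5 ratios). With 3 libraries 0.25 is the smallest p this test can give, so no ratio here can pass 0.05. Scap stood at 6.77, 5.16 and 8.10 TPM, and 18.9% of its exon bases are shared with an opposite-strand gene. Insig1 stood at 18.4, 14.5 and 63.0 TPM and Insig2 at 22.2, 20.4 and 36.9 TPM. Insig1 was below Insig2 in B and C and above it in D, with log2 ratios of -0.27, -0.49 and 0.77, so their order was not resolved.

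In fatty acid synthesis the desaturase genes differed widely in level. Scd2 (chromosome 19, 44293676 to 44306864), a stearoyl-CoA desaturase gene, stood at 91.6, 95.4 and 543 TPM for B, C and D. Scd1 (chromosome 19, 44394451 to 44407709), its neighbour, stood at 5.57, 3.34 and 31.8 TPM. Scd2 exceeded Scd1 in all 3 libraries, with a log2 ratio of 4.30 ± 0.43 (n = 3; exact sign-flip p = 0.25, adjusted p = 0.31). The ratios for B, C and D were 4.02, 4.79 and 4.09, so the difference stayed within a narrow range while both levels were several times higher in D. Scd3 and Scd4, the other genes of the cluster, stood at no more than 1.05 and 0.0689 TPM in any library. Reads from stretches alike among these genes may be misassigned.

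Acly (chromosome 11, 100476353 to 100528000), the ATP citrate lyase gene, was at 57.8, 57.4 and 360 TPM for B, C and D. The 2 larger pools are nearly equal and D stands apart. Fasn, fatty acid synthase, stood at 18.8, 21.9 and 42.0 TPM, and Acaca, acetyl-CoA carboxylase, at 2.63, 2.50 and 4.23 TPM. Fasn exceeded Acaca in all 3 libraries, with a log2 ratio of 3.05 ± 0.25 (exact sign-flip p = 0.25, adjusted p = 0.31). The median sterol enzyme exceeded the median of the 5 fatty acid genes by 1.65 ± 0.14 in log2 TPM, in 3 of 3 libraries (same p and adjusted p). CPM, which leaves length out, gave -0.07, so that difference rests on the length scaling: the fatty acid genes have a median length of 5453 bases, against 2544, 5546 and 3634 for the mevalonate, squalene and later sterol genes.

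Transport genes were low apart from Apoe in a single library. Stard4, which carries sterol between membranes, stood at 4.07, 4.33 and 9.64 TPM in B, C and D. Lrp1, a large receptor for ApoE-bearing particles, stood at 1.51, 1.19 and 4.38 TPM. Abca1, the cholesterol exporter, was at 0.899, 0.853 and 4.57 TPM. Apoe (chromosome 7, 19696109 to 19699166) encodes the main lipid carrier of the nervous system and stood at 5.71, 78.2 and 12.3 TPM, so C alone is high.

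Promoter sequences bear on genes driven by the same factors. SREBP binds sterol regulatory elements and commonly acts together with NF-Y, which binds CCAAT boxes. RefSeq promoters of build GRCm38.p6, from 250 bases before to 50 after a start, matched 26 of the 32 genes by symbol, and the first window listed was used. For 25 of the 26 that start lay inside the span of the gene's counted exons, introns included, or within 1 kb of it. Pmvk was the exception, and its window, which holds a CCAAT box, stayed among the 26. Any position inside the span passes, so the check does not place a start at a counted first exon. For 23 of the 26 the transcribed end of the window matched a GENCODE transcript on the printed strand. Fdps, Fdft1, Sqle, Scd1, Scd2 and Stard4 had no window. Motifs were searched on both strands. CCAAT was found in 19 of 26 (73.1%), against 39.2% of promoters of detected protein-coding genes and 37.9% of all 27025. The GC box GGGCGG, bound by Sp1, was in 20 of 26 (76.9%), against 67.3% and 35.9%. The E-box CACGTG was in 5 of 26 (19.2%), against 10.5% and 7.24%. The sterol regulatory element, searched as TCACNCCAC, was in 1 of 26 (3.85%), against 0.985% and 1.22%; that gene was Hmgcs1. Overlap between motifs was not removed. A match is a description of letters, and the absence of one says nothing of binding.

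The 200 bases before the start are shown for 5 genes that span the pathway. Hmgcs1 was taken for its match to TCACNCCAC, Mvk and Msmo1 for their repeated CCAAT boxes, Srebf2 as a control gene and Fasn for fatty acid synthesis. Only that form of the sterol element was searched, so near matches, as in Srebf2, are left unmarked. Each reads 5′ to 3′ on the gene's strand, and capitals mark TCACNCCAC and CCAAT or its reverse complement ATTGG.
Hmgcs1 (chr13:119690151-119690350, + strand): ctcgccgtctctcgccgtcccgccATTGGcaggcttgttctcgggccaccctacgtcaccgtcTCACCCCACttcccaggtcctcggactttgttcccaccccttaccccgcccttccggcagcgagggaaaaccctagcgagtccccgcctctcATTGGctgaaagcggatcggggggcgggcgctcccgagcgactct
Mvk (chr5:114444069-114444268, + strand): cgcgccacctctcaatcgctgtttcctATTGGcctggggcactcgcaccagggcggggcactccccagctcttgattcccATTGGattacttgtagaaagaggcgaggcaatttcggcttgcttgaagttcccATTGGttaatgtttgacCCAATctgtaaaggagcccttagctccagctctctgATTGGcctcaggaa
Msmo1 (chr8:64733579-64733778, - strand): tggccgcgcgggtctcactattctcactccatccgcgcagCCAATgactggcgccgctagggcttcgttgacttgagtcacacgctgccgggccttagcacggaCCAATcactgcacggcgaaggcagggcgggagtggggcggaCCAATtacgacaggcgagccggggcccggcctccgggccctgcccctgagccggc
Srebf2 (chr15:82147069-82147268, + strand): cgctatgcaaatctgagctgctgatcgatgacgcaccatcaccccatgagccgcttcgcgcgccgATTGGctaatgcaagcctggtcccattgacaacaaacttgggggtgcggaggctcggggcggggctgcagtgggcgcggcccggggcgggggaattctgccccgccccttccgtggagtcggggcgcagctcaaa
Fasn (chr11:120824548-120824747, - strand): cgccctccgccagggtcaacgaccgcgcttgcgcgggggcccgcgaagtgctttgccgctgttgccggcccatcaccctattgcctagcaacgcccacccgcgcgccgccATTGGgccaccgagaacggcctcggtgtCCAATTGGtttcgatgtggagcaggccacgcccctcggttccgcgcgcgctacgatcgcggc
In these 200 bases Mvk holds 5 CCAAT boxes, Msmo1 and Fasn 3 each, Hmgcs1 2 beside its sterol element, and Srebf2 1. In Fasn 2 of the boxes overlap.

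Library D came from the fewest embryos and was compared with B and C together across 15727 genes with edgeR's quasi-likelihood test. Only 1 residual degree of freedom is left, a single library is taken to vary as much as the pair it is set against, and standard errors are approximate. Pool size and any other difference of D cannot be told apart. A gene high in B or C alone can also take a ratio below 0 here. Apoe is such a gene: at 5.71, 78.2 and 12.3 TPM for B, C and D, it was higher in D than in B, and its ratio below 0 rests on C. At a Benjamini-Hochberg adjusted p of 0.05 the fit called 0 of the 32 genes, and 0% of all genes (0). At an unadjusted p under 0.05 there were 9 of 32, of which 7 were higher and 2 lower in D, beside 19.4% of all genes. DESeq2 called 3 of the 32, Acly, Scd1 and Scd2, all higher in D, beside 5.89% of all genes (688 of the 11680 given an adjusted p). Without the filter on low counts edgeR called 5, beside 6.51% of all genes (1534 of 23553): Hmgcs1, Acly, Scd1 and Scd2 were higher in D and Apoe lower.

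The log2 ratio of D was above 0 for 20 of the 32 genes (62.5%), against 49.5% of all genes tested, with a median of 0.40 against -0.02. On the TPM scale, where D runs high throughout, 22 of the 30 detected members were highest in D, against 63.1% of all detected genes. The fatty acid genes were above 0 in 5 of 5 (median 1.83), though Acaca stood at -0.02 with DESeq2's size factors and at -0.66 with the trend described below removed. Scd1 had 2.14 ± 0.51 (approximate SE; edgeR adjusted p = 0.191), Acly 1.94 ± 0.38 (adjusted p = 0.168), Scd2 1.83 ± 0.37 (adjusted p = 0.168), Fasn 0.34 ± 0.44 and Acaca 0.02 ± 0.48. Citrate cleavage and desaturation genes thus had the high values, while both genes of chain synthesis lay within 1 standard error of 0.

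Sterol enzymes did not share 1 direction in D. Hmgcs1 had the highest log2 ratio among them at 1.77 ± 0.42 (edgeR adjusted p = 0.191), followed by Idi1 at 1.28 ± 0.92, Lss at 1.26 ± 0.58 and Dhcr7 at 1.18 ± 0.46. The lowest were Mvd at -1.42 ± 0.51, Pmvk at -1.34 ± 0.43, Tm7sf2 at -1.13 ± 0.61, Mvk and Ebp at -1.08 each, and Fdps at -1.08 ± 0.45. Ratios above 0 were found for 2 of 7 mevalonate genes, 2 of 3 from squalene to lanosterol and 5 of 8 beyond. Adjacent steps could therefore lie on opposite sides, as Hmgcs1 and Mvk do. Of the control genes Insig1 had 1.24 ± 0.46, Srebf1 1.00 ± 0.56 and Srebf2 -0.54 ± 0.47. The transport genes were split: Abca1 had 1.68 ± 0.53, Lrp1 1.00 ± 0.49 and Stard4 0.50 ± 0.50, whereas Apoe, high in C, had -2.52 ± 1.46, the largest ratio of the 32 in size (edgeR adjusted p = 0.364).

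**Figure D2:**
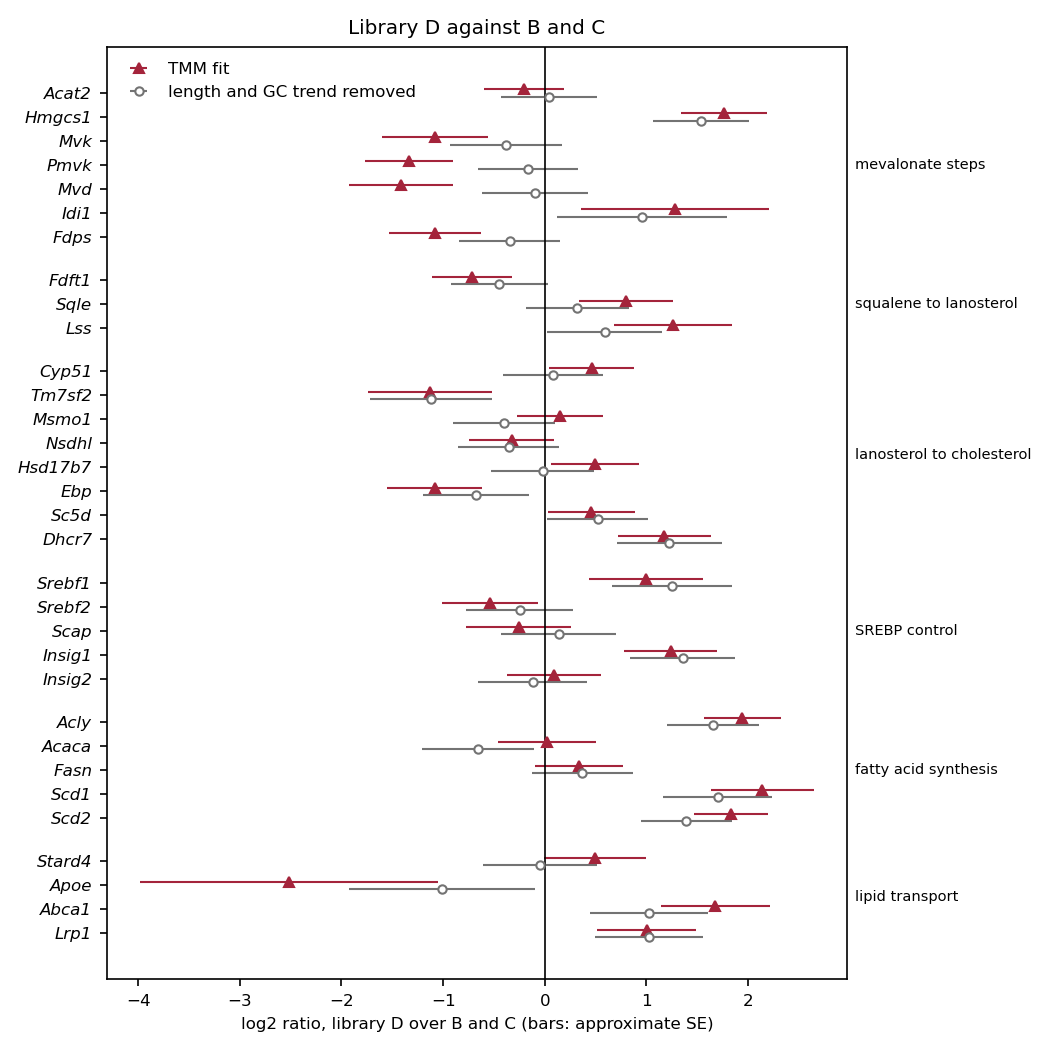
Log2 ratio of library D over B and C for each gene, with bars of 1 approximate SE, from the TMM fit (triangles) and from a fit without the trend of length and GC content (circles). Scd1, Acly, Scd2 and Hmgcs1 lie highest in both, at 2.14, 1.94, 1.83 and 1.77 in the TMM fit, whereas Mvd and Pmvk move from -1.42 and -1.34 to -0.09 and -0.16.

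Gene length moved with these ratios. Of the 11 members shorter than 3000 bases 9 were below 0 in D, and of the 21 that were longer 18 were above 0. Across the 32 genes, which share the 3 libraries and are not replicates, Spearman's rho of length and ratio was 0.57, a description only. With a smooth trend of length and GC content removed from every library, 17 of 32 were above 0 and the median was 0.06, the same as over all genes. Spearman's rho of length and ratio over the members was still 0.35, so the ratios below are not free of length. Hmgcs1 then stood at 1.54 ± 0.47, Scd1 at 1.70 ± 0.54, Acly at 1.66 ± 0.46, Scd2 at 1.39 ± 0.45, Insig1 at 1.36 ± 0.52, Srebf1 at 1.25 ± 0.59 and Dhcr7 at 1.23 ± 0.52. None of the 32 was called in that fit, which called 0.604% of all genes (95). The ratios of Hmgcs1, Acly and the Scd genes were thus lower than before but still the 4 largest of the set, while Pmvk and Mvd, at -0.16 and -0.09, lay within 1 standard error of 0. Tm7sf2 stayed at -1.12 ± 0.60, Apoe stood at -1.01 ± 0.92, and Acaca went from 0.02 to -0.66 ± 0.55.

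**Figure D3:**
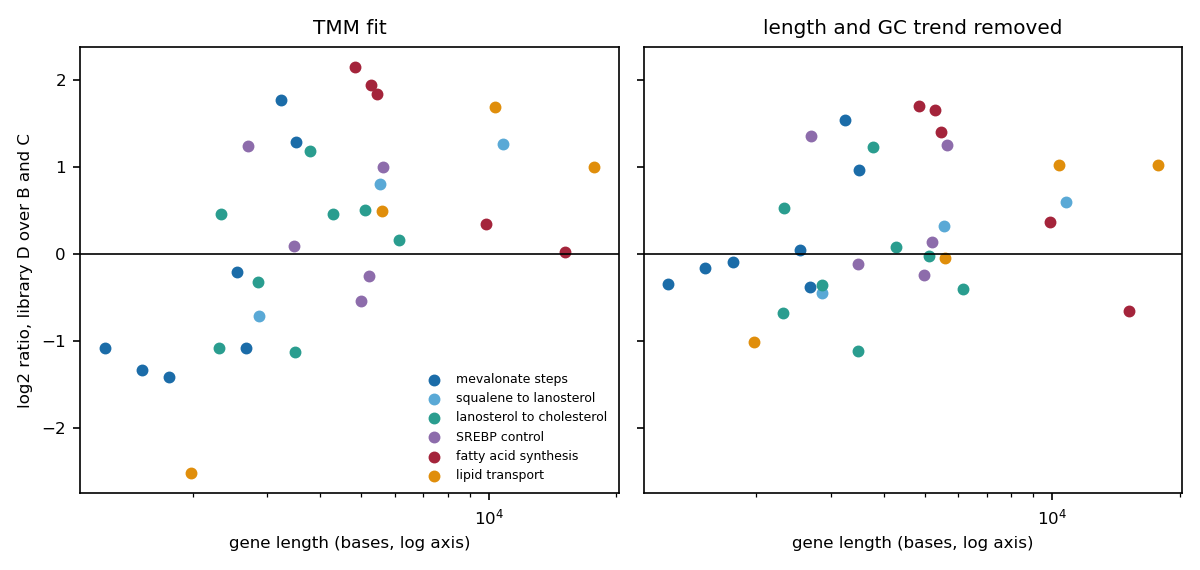
Log2 ratio of library D over B and C against gene length in bases (log axis), 1 point per gene coloured by role, from the TMM fit (left) and after the trend of length and GC was taken out (right). On the left 9 of the 11 genes under 3000 bases lie below 0; on the right the fatty acid genes Scd1, Acly and Scd2 remain between 1.39 and 1.70.

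Markers of glia also moved with D. Log2 ratios were above 0 for 7 of 9 glia and Schwann precursor markers (median 0.89), with Ednrb at 375, 254 and 2138 TPM in B, C and D and Fabp7 at 2487, 1088 and 2017 TPM. Neuron markers were below 0 for 8 of 10, with a summed level of 34649, 25924 and 21190 TPM for B, C and D, led by Tubb3 and Stmn2. Erythroid markers were below 0 for 6 of 6, led by Hbb-y and Hba-x, with Slc4a1 at 0 counts in D. Mesenchyme markers were above 0 for 4 of 8, among them the 2 most abundant, Col1a2 (log2 ratio 1.74) and Col3a1 (1.62). Endothelium markers were above 0 for 2 of 6, Pecam1 (0.23) and Tek, which had 0 counts in C; Cldn5 stood at -2.49. Their part in the higher Acly, Scd2 and Hmgcs1 levels was not tested.

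Libraries B and C, the larger pools, were close for most of the 32 genes. The standard deviation of log2 TPM had a median of 0.68 over the 32 genes, against 0.64 over all detected genes; with D left out it was 0.17 against 0.32. Leaving out B gave 0.79 against 0.71, and leaving out C 0.78 against 0.57. The spread fell most when D was left out. With B set against C and D no member was called (0 of 32, and 0% of all genes; edgeR adjusted p = 1.00 for each member). There, 1 member, Apoe, had an unadjusted p under 0.05, as did 174 genes in all; DESeq2 called 0 members and 1 gene.

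Against B and D, library C had 1 called member, Apoe, beside 0.782% of all genes (123). Apoe rose in C by a log2 ratio of 3.63 ± 0.88 (edgeR adjusted p = 0.00941), from 929 counts, against 102 for B and 187 for D. It was also called with DESeq2 (adjusted p = 0.00198), with DESeq2's size factors and without a filter, and was not when the trend of length and GC was taken out (edgeR, 2.44 ± 0.65, adjusted p = 0.066). The gene has 1980 counted bases and shares none with another gene. Macrophages and glia are known sources of Apoe. The 10 macrophage markers summed to 103, 63.0 and 47.5 TPM for B, C and D, with Fcer1g at 49.3, 23.4 and 8.11 TPM and C1qb at 27.3, 25.1 and 16.6 TPM; 6 of the 10 were at 1 TPM or more in every library and none was at 0 counts. The macrophage sum was highest in B, and the glia sum was highest in D and lowest in C. Most of the glia sum came from Fabp7 and Ednrb. Sox10, Foxd3 and S100b were higher in C than in B, and the other glia markers were lower. In TPM 3 of the 10 macrophage markers, C1qa, C1qc and Mrc1, were highest in C. Their counts in B, C and D were low: 22, 20 and 9 for C1qa, 20, 34 and 17 for C1qc and 9, 8 and 7 for Mrc1. The part of macrophages or glia in the Apoe level was not tested. Apoc1, the adjacent apolipoprotein gene, stood at 3.10, 1.55 and 1.21 TPM, from only 15, 5 and 5 counts.

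**Figure D4:**
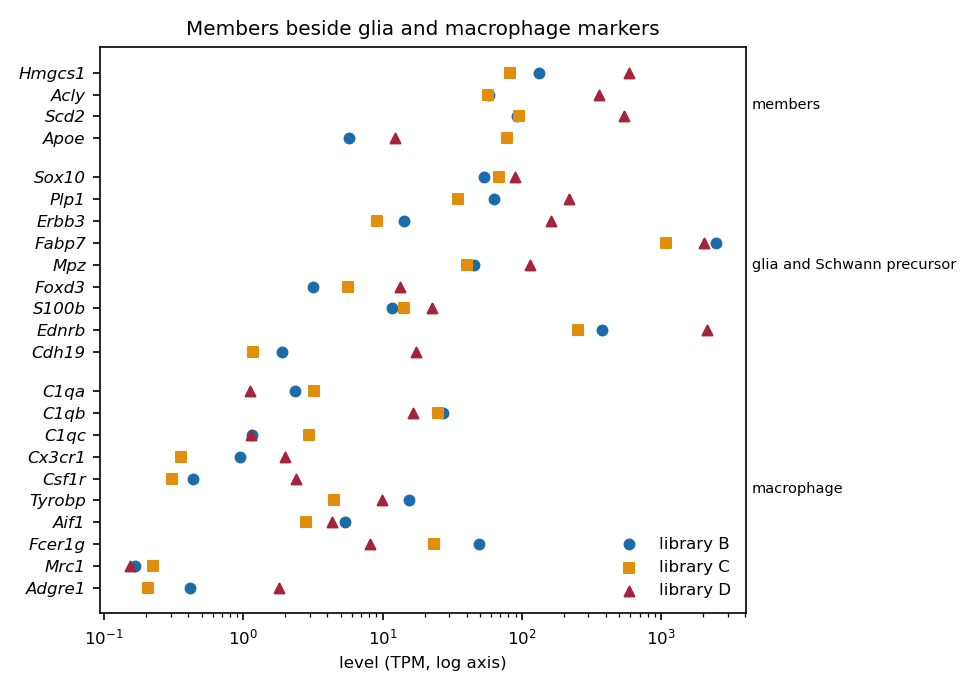
Levels in TPM (log axis) of Hmgcs1, Acly, Scd2 and Apoe beside the glia and Schwann precursor markers and the macrophage markers, 1 point per library. Hmgcs1, Acly, Scd2 and most glia markers are highest in D, and Apoe is highest in C. The macrophage markers sum to 103, 63.0 and 47.5 TPM in B, C and D.

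Neighbouring branches of the pathway were described from lists that hold none of the 32 genes. Adjusted over all genes, edgeR called none of their 53 genes in any of the 3 contrasts (Soat2, without counts, was not tested). At an unadjusted p under 0.05 in D there were 4, 3, 2, 2 and 2 in the lists as ordered below, beside 19.4% of all genes. For D, DESeq2 called 4, Elovl2, Hacd1, Acsl4 and Soat1, and edgeR without a filter called 8, beside 5.89% and 6.51% of all genes. For C, DESeq2 called Fnta (1.14% of all genes), and edgeR with the length and GC trend removed called Fnta and Hacd1 (1.04%). Elovl2, Soat1 and Hacd1 lie outside the rule for named genes and were chosen after their values were seen. Of 14 elongation and desaturation genes all were detected. Tecr, the reductase that ends each elongation cycle, was the highest at 2420, 2759 and 1876 TPM in B, C and D, above every member of the set. Hsd17b12, the elongation ketoreductase, stood at 203, 167 and 387 TPM and Hacd3, a dehydratase, at 116, 52.3 and 240 TPM. In D 8 of the 14 were above 0 (median log2 ratio 0.24).

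Of the 10 acyl-CoA supply genes 9 were detected and 5 were above 0 in D (median 0.02). Slc25a1, which exports citrate from mitochondria to feed ATP citrate lyase, stood at 30.1, 113 and 23.5 TPM, so it was highest in C and not in D like Acly. Acsl4, an acyl-CoA synthetase, stood at 16.1, 11.4 and 133 TPM and Acsl5 at 15.1, 7.31 and 31.7 TPM.

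All 10 isoprenoid genes were detected, and 4 were above 0 in D (median -0.20). Fnta, the shared prenyltransferase subunit, stood at 26.0, 175 and 43.1 TPM, Ggps1, which makes geranylgeranyl diphosphate, at 27.0, 30.6 and 113 TPM, and Fntb at 41.9, 13.1 and 83.8 TPM. Of the 7 genes of SREBP processing and LXR, 4 were above 0 in D (median 0.71). Mbtps1, the site protease that begins SREBP release, stood at 13.9, 13.1 and 63.7 TPM. Nr1h2, the gene of LXR beta, stood at 12.4, 23.1 and 12.5 TPM.

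In sterol transport and esterification 10 of 12 genes were detected, and 6 of the 11 tested were above 0 in D (median 0.01). Npc2, the lysosomal cholesterol carrier, was nearly level in TPM, at 386, 342 and 326 in B, C and D. On the TMM scale its log2 ratio in D was -0.86 ± 0.39. Apod, an apolipoprotein gene, stood at 78.2, 67.5 and 36.8 TPM, and Abcg1, a sterol exporter, at 44.8, 12.2 and 39.2 TPM. Soat2 had 0 counts in each library; 3 counts, the limit that a count of 0 allows, are 0.166, 0.257 and 0.143 CPM (counts scaled by library total only) in B, C and D. Soat1, which esterifies cholesterol, and Elovl2, a fatty acid elongase, stood out. Soat1 was at 3.19, 2.95 and 40.9 TPM, with a log2 ratio of 3.03 ± 0.44 in D (edgeR adjusted p = 0.167; 0.0441 with the trend removed). Elovl2 was at 6.30, 7.36 and 131 TPM, with 3.56 ± 0.45 (edgeR adjusted p = 0.167; 0.015 with the trend removed).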

How the data were processed

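Per the file headers, the authors deposited for every library the raw count, CPM and RPKM of each Ensembl gene, its exon coordinates and length. Subread, featureCounts 1.4.5 and GRCm38.p2 are named in the submitters' processing notes. Annotation release, strand setting and read filters: not given in the sources used here. Per the labels' protocols the cDNA kit is a low-input kit. Recomputed CPM and RPKM matched the deposited columns, and all results use the counts. Symbols came from GENCODE M21 (40254 of 41388 genes).

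TPM was count over length, scaled to a fixed sum over all genes; ratios used log2(TPM + 0.1). Each library was set against the others with edgeR 4.0.16 (TMM, filterByExpr, Benjamini-Hochberg over all genes), tested on simulated data. DESeq2 1.42.0, its size factors, no filter, and a length and GC trend (mgcv 1.9.3, fitted where the mean count was 10 or more, GC from the longest transcript, known for 99% of genes with a count) were alternatives. Members and lists were chosen with earlier results of these data known. The trend was centred on its median, and the DESeq2 and no-filter values of the D ratios and the background of detected promoters were added, after the data were seen. The text names every member, the 3 genes of highest mean TPM in each other pathway list, and in each marker list the 2 highest and any at 0 counts, except some that are not reported here; relatives of members were chosen after their values were seen. Intervals and count limits cover counting error only, since PCR reads lack molecular identifiers. P-values of the sign-flip test rest on the spread between the 3 pools. Those of the fits rest on the spread between the 2 libraries on the same side, shared in part over genes. Either spread may be partly technical.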

Additional observations from a re-analysis of the deposited data

How the results depend on the processing

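Of 190 alternatives to the values above, 164 were counted as alike, 6 moved the value and 11 reversed its sign. The rest took a member across the threshold of a call. For the ratio of a gene, alike means the same sign and the same side of the threshold, not the same size. With the length and GC trend taken out, Pmvk in D went from -1.34 to -0.16 and was counted as alike. So was the median ratio of members in D, which went from 0.40 to 0.06. With the length and GC trend taken out, the D ratios of Acat2, Msmo1, Hsd17b7, Scap, Insig2, Acaca and Stard4, none of them called, became 0.04, -0.40, -0.02, 0.14, -0.12, -0.66 and -0.05, and DESeq2's size factors put Acaca at -0.02. Insig1 over Insig2, 0.00, became -0.36 with CPM and ranged from -0.38 without D to 0.25 without C. Members called in D, 0 with TMM, came to 5 without a filter on low counts and 3 with DESeq2; members called in C, 1, came to 0 once the trend of length and GC was taken out; the cause was not tested. CPM in place of TPM moved Fasn over Acaca from 3.05 to 2.47 and the sterol enzymes over the fatty acid genes from 1.65 to -0.07, by leaving out length, and a pseudocount of 1 moved Fasn over Acaca to 2.73. The median spread of members, 0.68, ranged from 0.17 without D to 0.79 without B. Members above 0 in D numbered 17 to 23 over all alternatives, D against B alone and against C alone included. Members detected numbered 31 at 0.5 TPM and 24 at 5 TPM. No paired analysis was possible because the 3 libraries form 1 group. With 1 library on a side, the fits cannot separate a pool's own noise from its make-up, and Idi1 is limited by its depth of 8 counts in C.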
